A study of Mus musculus with 10 samples.

Results

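The CXC chemokines examined here were Cxcl1, Cxcl2, Cxcl3, Cxcl5, Cxcl9, Cxcl10, Cxcl11, Cxcl12, Cxcl14 and Cxcl16, 10 genes found by symbol among the 24411 gene rows of the deposited count files. They were followed in mouse microglia, the macrophages of the brain, across 10 RNA-seq libraries. The groups were primary microglia given EPZ-6438, an inhibitor of the histone methyltransferase EZH2, together with lipopolysaccharide (LPS), a bacterial activator of Toll-like receptor 4 (PM_EPZ_LPS, n = 3), and primary microglia given EPZ-6438 without LPS (PM_EPZ, n = 3). BV2, an immortalised mouse microglial line, was treated in the same ways (BV2_EPZ_LPS and BV2_EPZ, n = 2 each). All 4 groups had EPZ-6438 at 10 uM and a 4 h treatment, LPS was at 10 ng/ml, and cells without the inhibitor were not analysed here. The primary cells came from brains of 3-day-old ICR mice, 12 mice pooled, and were shaken off mixed glial cultures, with over 92% CD11b-positive per the labels' protocols. BV2 is a single immortalised line. The labels do not state whether replicates were grown separately, and the p-values therefore speak for the spread among these libraries alone, possibly a technical one.

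CXC chemokines are small secreted proteins that attract white blood cells by binding G-protein-coupled receptors of the CXCR family. Those with a glutamate-leucine-arginine (ELR) motif, here Cxcl1, Cxcl2, Cxcl3 and Cxcl5, act on CXCR2 and draw neutrophils. Cxcl9, Cxcl10 and Cxcl11 bind CXCR3 and draw activated T cells and natural killer cells, and their genes respond to interferons. Cxcl12, the ligand of CXCR4, and Cxcl14 are made in many tissues at rest, and Cxcl16 is made as a membrane-anchored protein that binds CXCR6 and can be shed. Toll-like receptor 4 signals to the transcription factor NF-kB and to interferon regulatory factors, and microglia are a known source of several of these chemokines in inflamed brain.

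The promoters of the 5 members with a RefSeq match in the 2 chemokine clusters on chromosome 5 are printed first, because these genes rose with LPS in the same libraries. Each is the 250 bases before the gene's start in RefSeq, 5′ to 3′ on the gene's strand, from RefSeq (GRCm38.p6), which matched 7 of the 10 members. Capitals mark matches, on either strand, to 4 patterns. The strict kB type is GGG, any 2 bases, then TTTCC, and the loose kB type is GGG, any 3 bases, then TTCC. The interferon-response type is GAAA, any 2 bases, then GAAA, and the last is TATAAA. The RefSeq start lies beyond the GENCODE start used further on for Cxcl1 and Cxcl2, so the last bases of those 2 stretches fall inside the GENCODE genes, and distances are counted from the RefSeq start. Every strict kB match is also a loose one, and matches on opposite strands can overlap.
Cxcl1, chr5:90890995-90891244, plus strand: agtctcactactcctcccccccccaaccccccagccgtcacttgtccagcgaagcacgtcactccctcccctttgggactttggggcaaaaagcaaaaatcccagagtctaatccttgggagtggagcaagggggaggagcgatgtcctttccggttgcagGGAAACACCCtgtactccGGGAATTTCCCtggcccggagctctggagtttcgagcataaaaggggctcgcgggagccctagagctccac
Cxcl2, chr5:90903649-90903898, plus strand: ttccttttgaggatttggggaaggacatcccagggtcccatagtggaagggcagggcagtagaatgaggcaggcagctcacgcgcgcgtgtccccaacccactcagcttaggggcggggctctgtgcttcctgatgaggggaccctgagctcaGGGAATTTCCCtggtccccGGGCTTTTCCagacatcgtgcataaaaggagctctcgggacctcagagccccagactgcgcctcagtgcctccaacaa
Cxcl3, chr5:90785851-90786100, plus strand: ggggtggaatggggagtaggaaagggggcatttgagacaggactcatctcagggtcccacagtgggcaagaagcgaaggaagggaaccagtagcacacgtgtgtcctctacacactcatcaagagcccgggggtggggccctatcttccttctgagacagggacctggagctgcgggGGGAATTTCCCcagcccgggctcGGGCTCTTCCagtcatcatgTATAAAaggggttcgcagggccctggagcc
Cxcl10, chr5:92348890-92349139, minus strand: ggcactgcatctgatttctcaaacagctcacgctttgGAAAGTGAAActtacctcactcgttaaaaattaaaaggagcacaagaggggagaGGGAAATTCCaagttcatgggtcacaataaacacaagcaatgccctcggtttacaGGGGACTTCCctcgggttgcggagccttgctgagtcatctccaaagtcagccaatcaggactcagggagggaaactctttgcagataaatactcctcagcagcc
Cxcl9, chr5:92328080-92328329, minus strand: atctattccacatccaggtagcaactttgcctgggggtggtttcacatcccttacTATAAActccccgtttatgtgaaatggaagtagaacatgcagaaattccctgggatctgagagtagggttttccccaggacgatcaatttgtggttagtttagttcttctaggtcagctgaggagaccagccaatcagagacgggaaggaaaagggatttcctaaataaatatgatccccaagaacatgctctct

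The promoters of Cxcl1, Cxcl2 and Cxcl3 each held the run GGGAATTTCCC, starting 71, 97 and 73 bases before the gene's start. Each held a further kB-type match, at 89, 78 and 50 bases. Over all 32851 RefSeq promoters of this length, 1.41% held the strict kB type and 4.65% the loose one. Cxcl10 held loose kB matches at 159 and 104 bases before its start and GAAAGTGAAA at 213, a pattern found in 2.98% of promoters. Cxcl9 had no kB-type or interferon-type match in this window, and held TATAAA, found in 12.37% of promoters. Of the other matched members, Cxcl14 held GAAACAGAAA at 172 bases and Cxcl12 held none of the patterns. Cxcl5, Cxcl11 and Cxcl16 are named only.

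Gene counts ran from 2750988 to 3684012 per library. Where a library shows 0 counts the gene could still have up to 3, equal to 0.845 to 1.23 CPM, counts scaled to a common library size. Levels are CPM on library sizes scaled by the trimmed mean of M-values (TMM), given as mean ± SD. Such limits and all counting intervals cover counting error only. All 10 microglia and macrophage markers, among them Csf1r, Cx3cr1 and Trem2, were detected in every group. Their summed level was 2295 to 2523 CPM in PM_EPZ_LPS, 2168 to 2363 CPM in PM_EPZ, 1582 to 1620 CPM in BV2_EPZ_LPS and 1658 to 1698 CPM in BV2_EPZ. Single markers differed more than the sums. Cx3cr1 had 130 ± 10.7 CPM in PM_EPZ and 2.89 ± 0.118 CPM in BV2_EPZ, and C1qb had 226 ± 33.6 CPM in PM_EPZ and 465 ± 21.1 CPM in BV2_EPZ. By the test used below, 6 of the 10 were higher in PM_EPZ than in BV2_EPZ and 2 lower. Over all genes tested, 41.5% were higher and 32.5% lower. The primary libraries also held RNA of other brain cells, with 8 astrocyte markers summing to 869.7 to 1551 CPM in PM_EPZ_LPS and 851.2 to 1410 CPM in PM_EPZ. In BV2 libraries 7 of these 8 were at 0 with LPS and 6 of 8 without. Neutrophil markers summed to 3.13 to 6.38 CPM in PM_EPZ_LPS and 1.64 to 4.50 CPM in PM_EPZ, and T cell and natural killer markers to at most 0.567 CPM in any library. PM_EPZ_LPS replicate 1 stood apart from its 2 partners. Across genes, its log2 levels correlated with theirs at 0.963 and 0.965, against 0.982 between them, and the ribosomal RNA precursor Rn45s took 43.7% of its counts, against 15.7% and 16.0%. Means without it are given for Cxcl9, Cxcl10, Cxcl11 and Cxcl14. In such bulk RNA, fewer cells of a type and less RNA per cell cannot be told apart.

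The family total was higher with LPS in primary microglia, and its make-up differed. The 10 genes summed to 3016, 2976 and 3189 CPM in PM_EPZ_LPS libraries 1, 2 and 3, against 77.6, 81.4 and 81.6 CPM in PM_EPZ libraries. The ELR members made up 61.6 ± 2.99% of this sum in PM_EPZ_LPS and 2.02 ± 0.570% in PM_EPZ (SD, n = 3 each). The CXCR3 ligands made up 27.1 ± 3.67% in PM_EPZ_LPS and 0.973 ± 0.898% in PM_EPZ. Cxcl16 alone held 10.5 ± 0.907% in PM_EPZ_LPS and 57.3 ± 4.45% in PM_EPZ, and the pair of Cxcl12 and Cxcl14 held 0.777 ± 0.0651% in PM_EPZ_LPS and 39.7 ± 4.21% in PM_EPZ. These are shares of reads, not corrected for gene length.

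**Figure D1:**
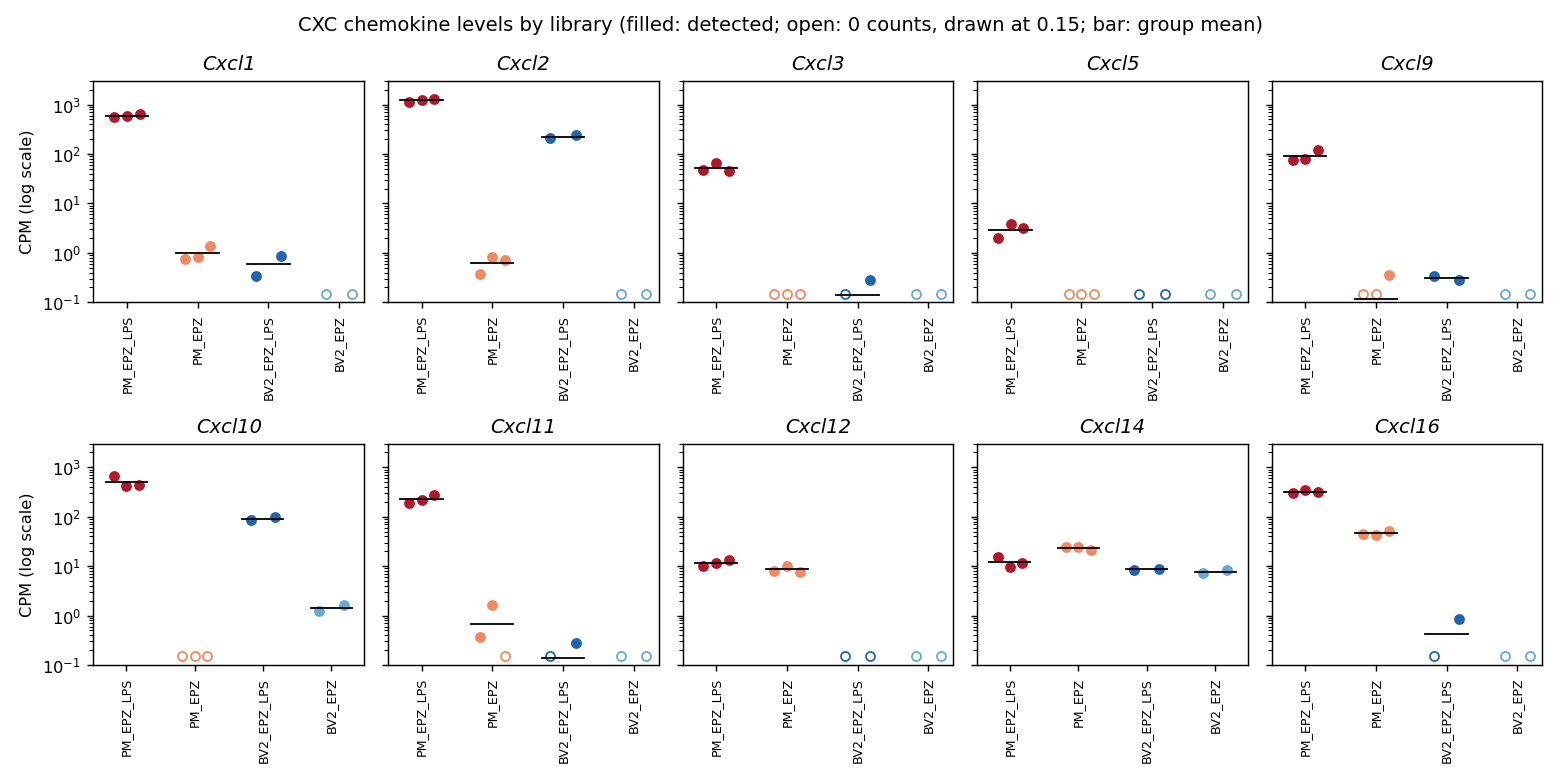
CPM of each CXC chemokine (log scale) in every library of the 4 groups, with a bar at the group mean and open circles for libraries with 0 counts, drawn at 0.15. The 8 panels of Cxcl1, Cxcl2, Cxcl3, Cxcl5, Cxcl9, Cxcl10, Cxcl11 and Cxcl16 stand higher in PM_EPZ_LPS than in PM_EPZ without overlap, Cxcl14 stands lower, and in BV2 cells Cxcl2 and Cxcl10 stand far above their levels without LPS.

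The first comparison asked how LPS changed these genes in primary microglia held under the inhibitor. Calls were made at an adjusted p below 0.05 by edgeR's quasi-likelihood test, with Benjamini-Hochberg adjustment over all genes tested. Of the 10 members 9 passed the filter on low counts, 7 rose, Cxcl14 fell and Cxcl12 was not called. Over all 10664 genes tested, 39.2% were called, 21.4% higher and 17.8% lower. In 9 members, Cxcl5 among them, the groups did not overlap, where 49% of all tested genes did not. The median log2 fold change of the 9 tested members was 9.09, or 8.38 with genes near 0 at their bound or count ratio, against -0.025 over all genes tested. Of the 9, 6 had under 10 counts in each PM_EPZ library, so they passed the filter through PM_EPZ_LPS alone, and a gene that enters in this way had to differ.

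All 3 tested neutrophil attractants rose. Cxcl2, known as MIP-2, had 1139, 1258 and 1299 CPM in PM_EPZ_LPS libraries 1, 2 and 3, against 0.375, 0.818 and 0.704 CPM in PM_EPZ. The groups lay far apart, with 11433 counts in all with LPS and 5 without, a log2 fold change of 10.83 ± 0.21 (SE; adjusted p = 6.02e-18). Cxcl1, known as KC, had 567.6, 574.8 and 653.5 CPM in PM_EPZ_LPS and 0.749, 0.818 and 1.41 CPM in PM_EPZ (log2 fold change 9.15 ± 0.21, adjusted p = 5.29e-17). Replicate libraries agreed closely for both, with coefficients of variation of 6.73% and 7.96% in PM_EPZ_LPS. Cxcl3, a close relative of Cxcl2, had 47.4, 65.1 and 44.8 CPM in PM_EPZ_LPS and 0 counts in all PM_EPZ libraries, at least 139-fold higher against 3 counts over the group (adjusted p = 5.34e-11). Cxcl5, made mainly by epithelial cells in other organs, had 1.96, 3.83 and 3.12 CPM in PM_EPZ_LPS and 0 counts in PM_EPZ. Its 28 counts put it at least 8.06-fold higher, but it did not pass the filter. In the 6 alternative settings that did test it, it was called in each, at adjusted p = 8.67e-07 to 0.00217.

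All 3 CXCR3 ligands rose. Cxcl10, known as IP-10, had 675.8, 412.7 and 446.8 CPM in PM_EPZ_LPS and 0 counts in every PM_EPZ library, at least 1323-fold higher (adjusted p = 2.01e-05). Replicate 1 was the highest of the 3, and without it Cxcl10 averaged 430 ± 24.1 CPM (n = 2) in place of 512 ± 143 CPM, at least 1143-fold higher. Cxcl11, known as I-TAC, had 185.3, 219.1 and 271.3 CPM in PM_EPZ_LPS and 0.375, 1.64 and 0 CPM in PM_EPZ (log2 fold change 8.38 ± 0.37, adjusted p = 5.92e-09). Cxcl9, known as MIG and induced above all by interferon gamma, had 77.2, 79.1 and 121.6 CPM in PM_EPZ_LPS and 0, 0 and 0.352 CPM in PM_EPZ. The single PM_EPZ count gives a ratio of 754.7 (95% counting interval 135.1 to 29840, adjusted p = 3.45e-10). Unlike Cxcl10, both Cxcl9 and Cxcl11 were lowest in replicate 1, and without it they averaged 100.3 ± 30.1 and 245 ± 36.9 CPM (n = 2), in place of 92.6 ± 25.1 and 225 ± 43.3 CPM. Transcripts of interferon gamma itself (Ifng) were at 0 in all 4 groups.

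Count ratios within a library compare members without any scaling of library sizes. The count ratio of Cxcl1 to Cxcl2 was 0.498, 0.457 and 0.503 in PM_EPZ_LPS libraries 1, 2 and 3, and that of Cxcl16 to Cxcl2 was 0.26, 0.273 and 0.249. These varied less than that of Cxcl3 to Cxcl2, at 0.0416, 0.0517 and 0.0345, in which library 1 lay in the middle. The ratio of Cxcl10 to Cxcl2 was 0.593, 0.328 and 0.344, that of Cxcl11 to Cxcl10 was 0.274, 0.531 and 0.607, and that of Cxcl9 to Cxcl10 was 0.114, 0.192 and 0.272. Library 1 lay at one end in each of the 3 ratios with Cxcl10, and it also had the higher Rn45s share. Whether that share has a part in these ratios was not tested.

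**Figure D2:**
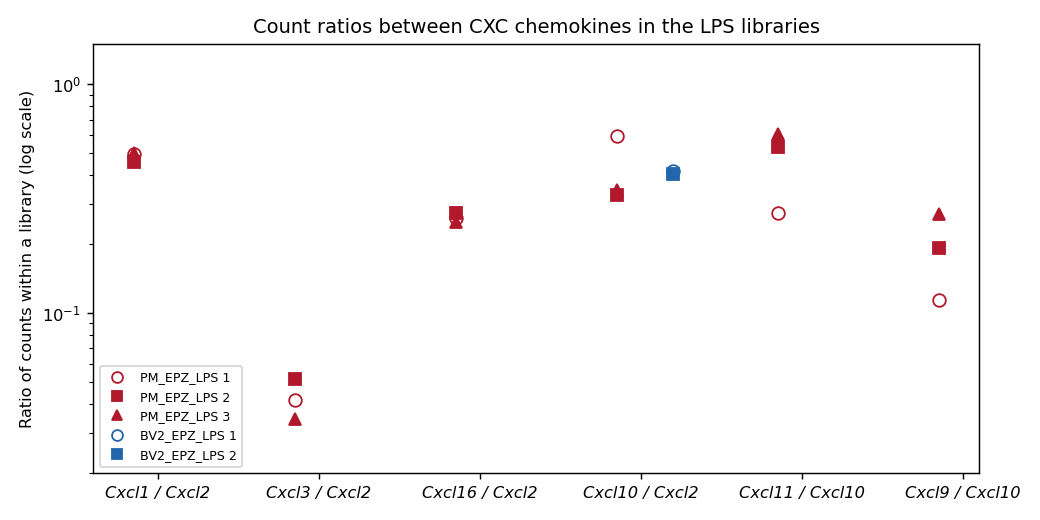
Ratios of counts between pairs of CXC chemokines within each LPS library (log scale, symbol by replicate). The Cxcl1 to Cxcl2 and Cxcl16 to Cxcl2 ratios lie close together in the 3 PM_EPZ_LPS libraries. In each ratio with Cxcl10, PM_EPZ_LPS replicate 1 (open circle) lies at one end of the 3.

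Cxcl16, the membrane-anchored ligand, was already present without LPS and rose further. It had 296.2, 343.2 and 323.8 CPM in PM_EPZ_LPS and 43.8, 43.3 and 50.7 CPM in PM_EPZ (log2 fold change 2.79 ± 0.13, adjusted p = 8.56e-13). The groups did not overlap, and the spread was small in both, with coefficients of variation of 7.36% in PM_EPZ_LPS and 8.93% in PM_EPZ. The 5′ part of Cxcl16 overlaps Zmynd15, a gene on the opposite strand, by 552 bases. Zmynd15 had 14.8 CPM in PM_EPZ_LPS and 2.74 CPM in PM_EPZ (log2 fold change 2.38, adjusted p = 3.87e-06). Counts were taken by strand, so reads of these genes were told apart.

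Cxcl14 went the other way. This chemokine, whose receptor is not settled, had 15.3, 9.57 and 11.3 CPM in PM_EPZ_LPS and 24.4, 24.5 and 20.8 CPM in PM_EPZ (log2 fold change -0.97 ± 0.22, adjusted p = 0.00147). Each PM_EPZ_LPS library lay below each PM_EPZ library. Without PM_EPZ_LPS replicate 1 its mean there was 10.45 ± 1.25 CPM (n = 2), in place of 12.1 ± 2.92 CPM, and the log2 fold change was -1.15 (adjusted p = 4.02e-06). Over the same libraries, the summed level of 6 oligodendrocyte lineage markers was 72.9 to 81.1 CPM in PM_EPZ_LPS and 91.5 to 105.3 CPM in PM_EPZ, and that of 5 neuron markers was 54.45 to 61.5 CPM in PM_EPZ_LPS and 66.3 to 67.5 CPM in PM_EPZ. Neither overlapped, while the astrocyte sums did overlap, and the part of other cells in the Cxcl14 value was not tested. Of the oligodendrocyte list, 1 of 5 tested markers was called lower, where 17.8% of all genes tested were.

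Cxcl12, the CXCR4 ligand, was the only tested member without a call. It had 10.2, 11.5 and 13.6 CPM in PM_EPZ_LPS and 7.87, 10.2 and 7.74 CPM in PM_EPZ (log2 fold change 0.46 ± 0.25, adjusted p = 0.16). The groups overlapped narrowly, at 10.2 CPM. Its receptor gene Cxcr4 fell, to 16.0 ± 1.71 CPM in PM_EPZ_LPS, against 266 ± 14.0 CPM in PM_EPZ (log2 fold change -4.05 ± 0.14, adjusted p = 1.32e-14). Of 8 CXC and atypical receptor genes only Cxcr4 and the scavenger receptor Ackr3 passed the filter in primary microglia, and Ackr3 was not called (adjusted p = 0.73). Cxcr2, the receptor of the ELR members, and Cxcr6, that of Cxcl16, were near 0, with Cxcr2 at 0.106 CPM in PM_EPZ_LPS and 0.117 CPM in PM_EPZ and Cxcr6 at 0.32 CPM in PM_EPZ_LPS and 0.36 CPM in PM_EPZ.

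The next comparison asked for the same response in BV2 cells. Only Cxcl2 and Cxcl10 rose there, of 3 members that passed the filter, and the third, Cxcl14, was not called. Cxcl2 and Cxcl10 had under 10 counts in each BV2_EPZ library and passed the filter through BV2_EPZ_LPS alone, so their count is no measure of how often members respond. Over all 9321 genes tested in BV2 cells, 5.2% were called, 3.69% higher and 1.51% lower. Without BV2_EPZ_LPS replicate 1 the count was 800 genes in place of 485. The 10 genes summed to 302.1 and 345.4 CPM in BV2_EPZ_LPS libraries 1 and 2, against 8.42 and 9.91 CPM in BV2_EPZ. Cxcl2 had 206.8 and 237.5 CPM in BV2_EPZ_LPS and 0 counts in BV2_EPZ, at least 464.3-fold higher (adjusted p = 7.66e-09). Cxcl10 had 86.3 and 96.6 CPM in BV2_EPZ_LPS and 1.25 and 1.65 CPM in BV2_EPZ (log2 fold change 5.98 ± 0.27, adjusted p = 3.19e-08). Replicates lay close together for both. Their count ratio, Cxcl10 to Cxcl2, was 0.417 and 0.407 in BV2_EPZ_LPS, between the ratio in PM_EPZ_LPS replicate 1 and those in its partners.

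Most of the other members were at or near 0 in BV2 cells. Cxcl1 had 4 counts in all in BV2_EPZ_LPS and 0 in BV2_EPZ, at least 1.27-fold higher and not tested. Cxcl3 and Cxcl11 had 1 count each, Cxcl9 had 2 and Cxcl16 had 3 in BV2_EPZ_LPS, and all were at 0 in BV2_EPZ, which gives no fold. Cxcl5 and Cxcl12 had 0 counts in all BV2 libraries. Cxcl14 had 8.39 and 8.73 CPM in BV2_EPZ_LPS and 7.17 and 8.26 CPM in BV2_EPZ (log2 fold change 0.19 ± 0.30, adjusted p = 0.876). Groups did not overlap for 5 of the 10 members in BV2 cells, where 42.1% of tested genes did not, so with 2 libraries a group this count is near the background. Cxcr4 fell in BV2 cells as well, to 1.88 ± 0.666 CPM in BV2_EPZ_LPS, against 25.1 ± 1.02 CPM in BV2_EPZ (log2 fold change -3.70 ± 0.33, adjusted p = 1.35e-05). In the BV2 libraries where Cxcl2 and Cxcl10 rose, all 5 neuron markers and 7 of 8 astrocyte markers had 0 counts, and the eighth, Aldoc, had 39.8 ± 2.54 CPM in BV2_EPZ_LPS and 42.2 ± 0.771 CPM in BV2_EPZ. The 5 endothelial markers summed to 96.1 to 109 CPM in BV2_EPZ_LPS and 111 to 138 CPM in BV2_EPZ, most of it from Kdr, at 91.6 ± 7.64 CPM in BV2_EPZ_LPS and 113.5 ± 19.4 CPM in BV2_EPZ. BV2 is a single line, and why it held these marker transcripts was not tested.

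**Figure D3:**
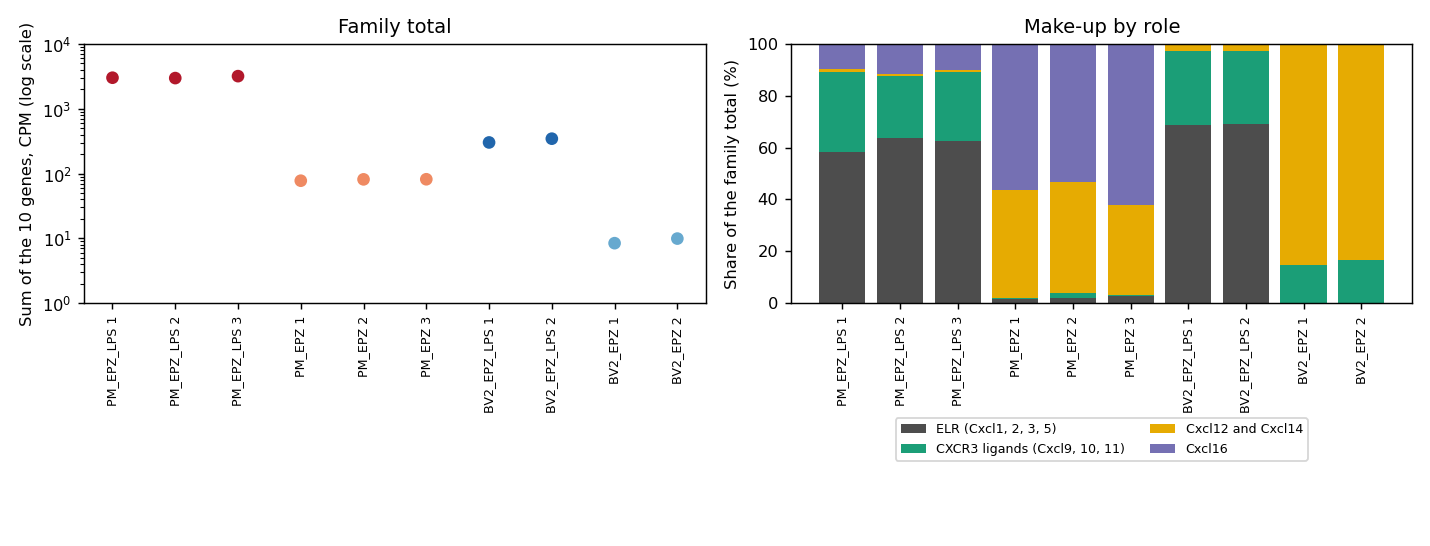
Left, the sum of the 10 CXC chemokines in CPM in each library (log scale). Right, the share of that sum by role (ELR members hold 61.6% and CXCR3 ligands 27.1% on average in PM_EPZ_LPS), with Cxcl16 and the pair of Cxcl12 and Cxcl14 filling most of PM_EPZ, and no Cxcl16 in BV2_EPZ.

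The difference of the 2 responses was tested directly, as the log2 LPS change in primary microglia minus that in BV2 cells, in a fit of all 10 libraries. It was called for Cxcl10 alone among the 10 members (adjusted p = 0.00264), where 12.2% of all 11626 tested genes were called, 8.65% higher and 3.54% lower. Cxcl10 was at least 1323-fold higher with LPS in primary microglia, against a ratio of 63.64 in BV2 cells (95% counting interval 33.3 to 139.9). This difference depends on the level without LPS, 0 counts in PM_EPZ against 9 in BV2_EPZ, where only a bound can be given. For Cxcl2 the difference was not called (adjusted p = 0.574), and both responses are open upwards or rest on 5 counts. Cxcl14 fell in primary microglia and was 1.11-fold in BV2 cells (counting interval 0.744 to 1.67), a difference of -1.11 ± 0.38 on the log2 scale (adjusted p = 0.0585). Without PM_EPZ_LPS replicate 1 this difference was -1.39 with an adjusted p of 0.00761, and without PM_EPZ replicate 3 its adjusted p was 0.0364. With all libraries it was 0.0494 with DESeq2's size factors, 0.0356 without structural RNA genes and 0.0492 with the replicate block, so the value lay near the threshold under several settings. For Cxcl1, with 4 and 0 counts in the BV2 groups, the adjusted p was 1. The other 6 members had at most 3 counts in each BV2 group, and a difference of responses could not be estimated for them.

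The cells also differed without LPS. In this comparison of PM_EPZ with BV2_EPZ, 5 of the 10 members were higher in primary microglia, Cxcl10 was lower and 4 were not called, where 74.1% of all genes tested were called, 41.5% higher and 32.5% lower. The clearest were Cxcl16 and Cxcl12. Cxcl16 had 46.0 ± 4.10 CPM in PM_EPZ (n = 3) and 0 counts in BV2_EPZ, at least 95.8-fold higher (adjusted p = 1.1e-14). Cxcl12 had 8.61 ± 1.40 CPM in PM_EPZ and 0 counts in BV2_EPZ, at least 17.8-fold higher (adjusted p = 2.97e-08). Both were well above the floor in each PM_EPZ library. Cxcl14 had 23.2 ± 2.12 CPM in PM_EPZ and 7.72 ± 0.770 CPM in BV2_EPZ (log2 fold change 1.58 ± 0.27, adjusted p = 6.36e-06), and it was the member that both cell types held at rest. Cxcl10 had 0 counts in PM_EPZ and 9 counts in BV2_EPZ, at least 3.83-fold lower in PM_EPZ (adjusted p = 0.00899). Cxcl1 and Cxcl2 passed the threshold on 8 and 5 counts in PM_EPZ against 0 in BV2_EPZ, at least 2.09-fold and 1.31-fold higher (adjusted p = 0.00388 and 0.0232). The Cxcl2 call was lost when either BV2_EPZ library was left out (adjusted p = 0.104 and 0.0921).

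With LPS in both, 9 of the 10 members were higher in primary microglia, 0 were lower and Cxcl14 was not called, where 43.1% of all genes tested were higher, 30.7% lower and 73.8% called. Cxcl1, Cxcl3, Cxcl5, Cxcl9 and Cxcl11 had under 10 counts in every library outside PM_EPZ_LPS. They passed the filter through that group alone and had to come out higher, so this count is no measure of how often members differ. No member was lower at an unadjusted p under 0.05 or by DESeq2. The members that BV2 cells did express differed by the least. Cxcl2 averaged 1232 ± 83.0 CPM in PM_EPZ_LPS (n = 3) and 222 ± 21.7 CPM in BV2_EPZ_LPS (n = 2), 5.55 times as high (log2 difference 2.47 ± 0.13, adjusted p = 5.25e-15). Cxcl10 averaged 512 ± 143 CPM in PM_EPZ_LPS and 91.5 ± 7.33 CPM in BV2_EPZ_LPS, 5.43 times as high (log2 difference 2.48 ± 0.20, adjusted p = 4.9e-08), or 4.70 times without PM_EPZ_LPS replicate 1. Cxcl14 averaged 12.1 ± 2.92 CPM in PM_EPZ_LPS and 8.56 ± 0.241 CPM in BV2_EPZ_LPS (log2 difference 0.47 ± 0.27, adjusted p = 0.116). Each PM_EPZ_LPS library lay above both BV2_EPZ_LPS libraries.

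The other 7 members rested on 0 to 4 counts in BV2_EPZ_LPS. Cxcl1 was 984 times as high in PM_EPZ_LPS as in BV2_EPZ_LPS (counting interval 384 to 3613), Cxcl11 1500 times (269 to 59260) and Cxcl16 702 times (240 to 3407). Cxcl3 was 342 times as high (61.1 to 13540) and Cxcl9 309.6 times (85.5 to 2560). Cxcl12 was at least 26.0-fold and Cxcl5 at least 6.61-fold higher. All 7 were called, at adjusted p between 8.54e-21 for Cxcl1 and 0.000154 for Cxcl5. Of these, only Cxcl12 and Cxcl16 also reached 10 counts in libraries outside PM_EPZ_LPS. Primary libraries held astrocyte, oligodendrocyte, fibroblast and neuron markers that BV2 libraries lacked or nearly lacked, with 6 fibroblast markers at 82.3 to 137.8 CPM in PM_EPZ_LPS and at most 0.282 CPM in BV2_EPZ_LPS. The part of those cells in any level that primary libraries alone held was not tested.

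Per kilobase of exon, on GENCODE gene models for GRCm38, Cxcl2 had the highest level in PM_EPZ_LPS, at 596 ± 40.2 CPM per kb (n = 3). Cxcl1 followed with 319 ± 25.4 CPM per kb and Cxcl10 with 227 ± 63.5 CPM per kb. The highest Cxcl10 library, at 300.1 CPM per kb, fell just short of the lowest Cxcl1 library, at 302.7 CPM per kb, so these neighbours nearly met. Cxcl16 had 106 ± 7.82 CPM per kb, Cxcl11 59.4 ± 11.4, Cxcl9 30.7 ± 8.33 and Cxcl3 14.99 ± 3.15 CPM per kb. Next came Cxcl14 with 6.60 ± 1.6 CPM per kb. Cxcl5, with 1.59 ± 0.506 CPM per kb, and Cxcl12, with 1.44 ± 0.211 CPM per kb, overlapped and stood last. With the longest coding transcript as the length, Cxcl11 stood above Cxcl16, Cxcl3 above Cxcl9 and Cxcl12 above Cxcl5, so the order within these pairs depends on the gene model. On that length Cxcl2 had 663, Cxcl1 628 and Cxcl10 378 CPM per kb, which brings Cxcl1 close to Cxcl2 and sets it apart from Cxcl10. On the shortest coding transcript they had 1111, 628 and 468 CPM per kb, so the gap between Cxcl1 and Cxcl2 also depends on the gene model. In PM_EPZ the order was Cxcl16 at 15.2 ± 1.36, Cxcl14 at 12.7 ± 1.16 and Cxcl12 at 1.05 ± 0.171 CPM per kb, with the rest lower. In BV2_EPZ_LPS it was Cxcl2 at 107 ± 10.5, Cxcl10 at 40.6 ± 3.25 and Cxcl14 at 4.69 ± 0.132 CPM per kb, and in BV2_EPZ Cxcl14 led at 4.22 ± 0.421 CPM per kb.

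**Figure D4:**
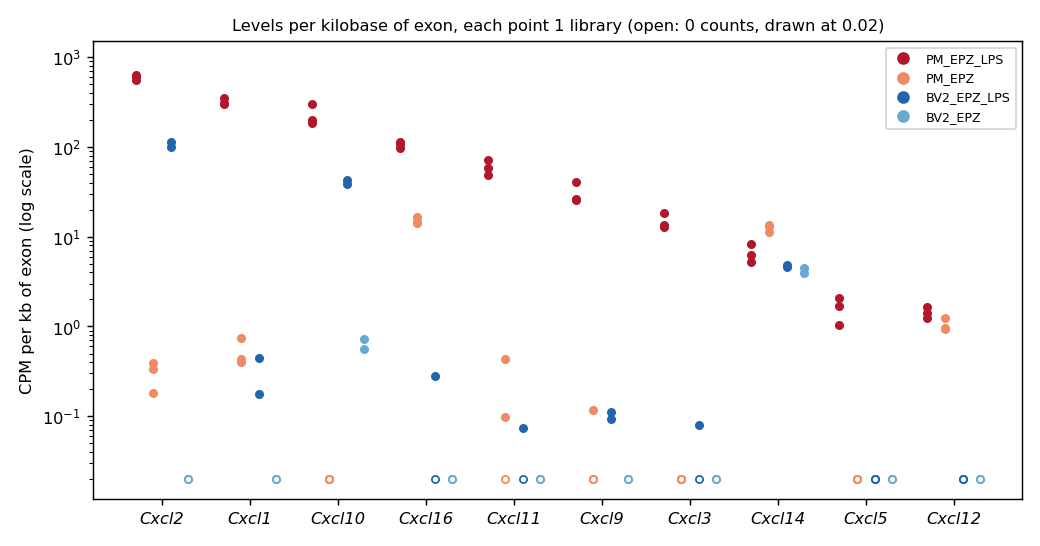
Level of each CXC chemokine per kilobase of exon (log scale), 1 point per library, ordered by the mean in PM_EPZ_LPS, with open circles for 0 counts drawn at 0.02. Cxcl2, Cxcl1 and Cxcl10 lead in PM_EPZ_LPS at 596, 319 and 227 CPM per kb, and only Cxcl14 lies above 3 CPM per kb in all 4 groups.

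The 4 ELR members lie on the plus strand within 146.6 kb of chromosome 5 (GRCm38), from Cxcl5 (90759360 to 90761624) through Cxcl3 (90786103 to 90789600) and Cxcl1 (90891241 to 90893115) to Cxcl2 (90903871 to 90905938). Levels in PM_EPZ_LPS differed by member within this cluster, with Cxcl1 and Cxcl2 at its far end and the low Cxcl5 at its start. Pf4, Ppbp and Cxcl15, CXC chemokine genes of the same cluster that are not among the 10, lie between them. Pf4, platelet factor 4, had 9.91 ± 2.72 CPM in PM_EPZ_LPS and 7.57 ± 0.573 CPM in PM_EPZ and was not called (adjusted p = 0.26), though Cxcl3 lies beside it. Pf4 had 57.7 ± 3.27 CPM in BV2_EPZ_LPS and 60.4 ± 4.29 CPM in BV2_EPZ, also not called (adjusted p = 0.966). Ppbp and Cxcl15 had at most 1 count in any group. In the cluster or within 200 kb of its ends, 3 other genes were tested in primary microglia, Pf4, Mthfd2l and Ereg. Of these only the growth factor gene Ereg rose (log2 fold change 1.58, adjusted p = 0.000228). Over all genes tested, 21.4% rose.

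The CXCR3 ligands lie on the minus strand within 44.1 kb of the same chromosome, as Cxcl9 (92321347 to 92328079), Cxcl10 (92346638 to 92348889) and Cxcl11 (92359544 to 92365485). Within 200 kb of this cluster 6 other genes were tested in primary microglia, and 4 rose and 1 fell, where 21.4% of all genes tested rose and 17.8% fell. U90926 had 12.0 CPM in PM_EPZ_LPS and 0 counts in PM_EPZ (adjusted p = 7.24e-08), Sdad1 and Nup54 rose by 1.06 and 1.12 on the log2 scale, and Scarb2 fell by 0.95. In BV2 cells the 5 that were tested had adjusted p between 0.305 for Nup54 and 0.993 for Uso1. Cxcl10 and Cxcl11 lie inside Art3, a gene on the opposite strand that had 0.32 CPM in PM_EPZ_LPS. Cxcl11 is annotated in GENCODE as a polymorphic pseudogene, a gene intact in some mouse strains only. It also overlaps the processed pseudogene Gm2673 on the opposite strand, by 1582 bases. With both strands searched, 39.1% of the Cxcl11 stretches of 101 bases, the read length, were shared with Gm2673. Counts were taken by strand, so reads of this overlap were told apart. Between members, only Cxcl2 and Cxcl3 shared such stretches, 67 of them, or 2.96% of those of Cxcl2 and 1.82% of those of Cxcl3, so few of their reads could be split between them.

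**Figure D5:**
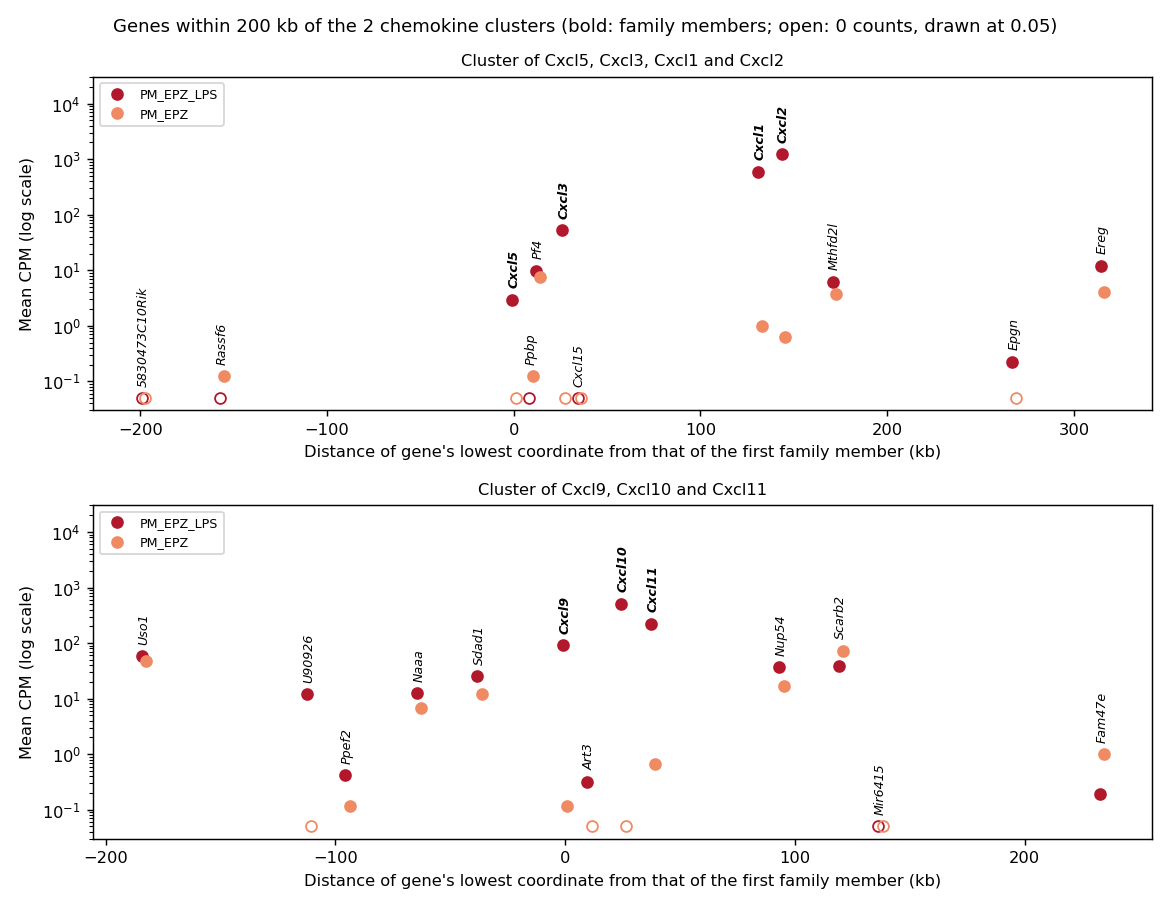
Mean CPM in PM_EPZ_LPS and PM_EPZ (log scale) of the genes at the cluster of ELR members (top) and at the cluster of CXCR3 ligands (bottom), by distance in kb from the first family member, with open circles for 0 counts drawn at 0.05. Cxcl1, Cxcl2, Cxcl10 and Cxcl11 (bold, as all members) reach 599, 1232, 512 and 225 CPM in PM_EPZ_LPS. Among neighbours, Pf4 and Uso1 lie close in both groups, U90926 and Ereg stand higher in PM_EPZ_LPS and Scarb2 stands lower.

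Cxcl12, on chromosome 6 (117168535 to 117181367, plus strand), Cxcl14, on chromosome 13 (56288643 to 56296551, minus strand), and Cxcl16, on chromosome 11 (70453983 to 70459984, minus strand), lie apart from these clusters. No other gene of the files lay within 200 kb of Cxcl12. Near Cxcl14, 2 other genes were tested in primary microglia. H2afy rose there (log2 fold change 0.48, adjusted p = 0.0106) and was not called in BV2 cells (adjusted p = 0.737). Tifab fell in both cell types, with log2 fold changes of -1.01 in primary microglia (adjusted p = 8.22e-05) and -1.26 in BV2 cells (adjusted p = 0.00443). Cxcl14 itself had log2 fold changes of -0.97 in primary microglia and 0.19 in BV2 cells.

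The genes whose levels followed a member most closely were found by Pearson's r of log2(CPM + 1) over the 10 libraries, which fall into 4 groups and so mostly measure the order of 4 means. Closest to Cxcl2 were Irg1, the itaconate enzyme gene (r = 0.9976), the cytokine gene Il1b (0.9969) and the adaptor gene Traf1 (0.9958). Closest to Cxcl10 were Rassf4 (0.996), the inflammasome sensor gene Nlrp3 (0.9938) and Tnfaip2 (0.9927). Cxcl12 was nearest to Cpne8 (0.9993), the astrocyte water channel gene Aqp4 (0.9992) and Chl1 (0.9991), all at 0 in BV2 cells. Aqp4 averaged 294.5 CPM in PM_EPZ_LPS and 153.4 CPM in PM_EPZ. Cxcl16 was nearest to Cp, the ceruloplasmin gene (0.9989), Ms4a7 (0.9971) and Met (0.9967).

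Genes of the NF-kB and interferon pathways, which act downstream of Toll-like receptor 4, were followed alongside. Of 11 NF-kB subunit and inhibitor genes, all 11 rose in primary microglia with LPS (median log2 fold change 3.23), and 9 of 10 tested rose in BV2 cells, Rela being the exception (adjusted p = 0.151). Over all genes tested, 21.4% rose in primary microglia and 3.69% in BV2 cells. Tnfaip3, which ends NF-kB signalling, had 1014 ± 21.1 CPM in PM_EPZ_LPS and 21.8 ± 4.80 CPM in PM_EPZ, and 161 ± 28.3 CPM in BV2_EPZ_LPS and 20.3 ± 2.12 CPM in BV2_EPZ. Nfkbiz, a cofactor of secondary NF-kB targets, rose by a log2 fold change of 4.71 ± 0.14 in primary microglia and 4.19 ± 0.18 in BV2 cells. The difference of responses was called for 6 of the 11, all larger in primary microglia, and not for Nfkbiz (adjusted p = 0.173). Over all genes tested, 8.65% were called with a higher value in primary microglia.

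Of 14 genes of the interferon axis, 10 rose in primary microglia and 2 of 13 tested, Irf1 and Irf9, in BV2 cells. The shares over all genes tested were 21.4% in primary microglia and 3.69% in BV2 cells. Ifnb1, which encodes interferon beta, had 11.5 ± 0.588 CPM in PM_EPZ_LPS and 0 counts in PM_EPZ (adjusted p = 8.16e-08), and it was at or near 0 in BV2 cells, with 0.168 ± 0.237 CPM in BV2_EPZ_LPS. Irf7, an interferon regulatory factor, had 502.4 ± 39.1 CPM in PM_EPZ_LPS and 1.55 ± 1.04 CPM in PM_EPZ, against 13.8 ± 0.407 CPM in BV2_EPZ_LPS and 8.16 ± 1.26 CPM in BV2_EPZ. Its difference of responses was 7.59 ± 0.42 on the log2 scale (adjusted p = 1.67e-13). The difference was called for 7 of the 14, all larger in primary microglia, where 8.65% of all genes tested were called in that direction. Cxcl10 rose in both cell types, and Cxcl9 and Cxcl11 were detected above the floor with LPS in primary microglia only.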

How the data were processed

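Ribosomal RNA was removed and strand-marked RNA-seq libraries were prepared, per the labels' protocols. CASAVA 1.8.2, Trimmomatic 0.33, STAR 2.5.1, DESeq2 (no version) and mm10 are named in the submitters' processing notes. The deposited files hold raw counts per gene symbol, unstranded and per strand, made with a gene annotation not given in the sources used here. Of the stranded columns, the one with nearly all gene reads was used (0.682% to 2.215% were in the other). Rows that name no gene held 70.4% to 79.5% of reads and were left out of library sizes, and 7.64% to 11.8% were multimapping. Gene counts were 2750988 to 3684012 per library.

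The test was that of edgeR 4.0.16 under R 4.3.3 (quasi-likelihood F test, robust, TMM, filterByExpr with minimum count 10 and total 15, Benjamini-Hochberg over all genes of a comparison). LPS responses were fitted per cell type (6 and 4 libraries), and the difference of responses and the comparisons of cells in a fit of all 10. That gives 5 families of tests. Fold changes are ± SE and levels ± SD. Against a group at 0 the fold is a bound at 3 counts over the group, and with 1 to 3 counts a count ratio with its 95% interval is given. Alternatives were DESeq2 1.42.0, its size factors, no filter, the unstranded counts, no structural RNA genes, a test against a 1.5-fold change, the replicate block, and leaving out each library. No pair of replicates was alike within sampling noise (lowest chi-square per degree of freedom 1.57).

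The members, gene lists, marker lists and motifs were chosen with earlier results of these data known. All 10 members are named, and other genes are listed by role or position or are the 3 nearest by correlation for Cxcl2, Cxcl10, Cxcl12 and Cxcl16. In the alternatives a member's own value was followed only where it had more than 3 counts in a compared group (in each cell type, for the difference of responses), a rule chosen after seeing the data. Scripts were tested on simulated counts. Lengths and positions are from the GENCODE annotation of GRCm38 and promoters from RefSeq (GRCm38.p6). Of the neutrophil markers, Ly6g was not among the rows.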

Additional observations from a re-analysis of the deposited data

Results flagged for a closer look

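The LPS response of Cxcl10 differed between the cell types by the test of the difference itself (edgeR adjusted p = 0.00264). Cxcl10 was at least 1323-fold higher in PM_EPZ_LPS than in PM_EPZ, and 63.64 times as high in BV2_EPZ_LPS as in BV2_EPZ (counting interval 33.3 to 139.9). The difference depends on the level without LPS, 0 counts in PM_EPZ against 9 in BV2_EPZ, where only a bound can be given. Without LPS, Cxcl10 was at least 3.83-fold lower in PM_EPZ than in BV2_EPZ. With LPS, its log2 difference between cells was 2.19 to 2.62 over the alternative settings. With LPS, Cxcl10 was 5.43 times as high in PM_EPZ_LPS as in BV2_EPZ_LPS. Cxcl2, whose difference of responses was not called, was 5.55 times as high. The difference of responses of Cxcl10 was called in all 17 settings tried, at adjusted p from 4.77e-08 to 0.0365. Primary replicate 1 left out was among them.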

How the results depend on the processing

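Deviations of same-numbered libraries from their group means correlated at 0.19, -0.088 and 0.206 in primary microglia. PM_EPZ_LPS replicate 2 correlated best with PM_EPZ replicate 3 (0.212), while replicates 1 and 3 correlated best with their own number. In BV2 cells both same-numbered pairs had 0.175, a single value, since with 2 libraries a group the deviations mirror each other. Whether same-numbered libraries were paired cannot be settled from these values, and the main fits did not pair them. In the LPS comparisons the member calls did not change: all 117 alternative values in primary microglia and 33 in BV2 cells kept direction and side of the threshold, and the replicate block left 8 members (primary microglia) and 2 (BV2) called, with 4479 and 596 genes called in all against 4178 and 485. The count of members called ranged from 8 to 9 (primary microglia), 2 (BV2, each time), 8 to 9 (cells with LPS) and 5 to 7 (cells without LPS) when each library was left out. For the difference of responses, 1 member was called, and 2 with DESeq2's size factors, without structural RNA genes and with the replicate block, 5 by DESeq2's Wald test, and 1 to 2 with each library left out (2 without PM_EPZ replicate 3 or PM_EPZ_LPS replicate 1). Cxcl14 passed in 5 of these (adjusted p = 0.0494 with DESeq2's size factors, 0.0356 without structural RNA genes, 0.0492 with the block, 0.0364 and 0.00761 without those libraries), and Cxcl1 by DESeq2's Wald test (0.00949). The cause was not tested. Without structural RNA genes the median of all genes shifted by -0.103 in this comparison and 60.1% of calls were higher, against 70.9%. That share was 54.5% without PM_EPZ_LPS replicate 1. The count of genes called was 721 against a 1.5-fold change (1418 otherwise), and in BV2 cells 318 by DESeq2 and 800 without BV2_EPZ_LPS replicate 1 (485 otherwise). Between cells without LPS, Cxcl11 (adjusted p = 0.0684) passed in 6 settings (0.0182 to 0.0437). Leaving structural RNA genes out of library sizes moved 21 of 22 group levels by more than 1 SD, and unscaled sizes 5 of 22. The former sizes are smaller in every library, which raises every level by construction, so that count is no measure of how stable the levels are. Depth limits members under 3 counts in a group, for which bounds alone are given.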

Other observations

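Genes that set how long chemokine mRNAs last, or that cut the proteins, moved in part. Of 7 mRNA decay and stability genes, 3 rose and 2 fell in primary microglia with LPS, and 2 rose in BV2 cells. Over all genes tested, 21.4% rose and 17.8% fell in primary microglia, and 3.69% rose in BV2 cells. Zc3h12a, an RNase that degrades cytokine mRNAs, had 132 ± 7.48 CPM in PM_EPZ_LPS and 12.2 ± 1.58 CPM in PM_EPZ (log2 fold change 3.41 ± 0.15, adjusted p = 6.45e-13), and 36.9 ± 2.83 CPM in BV2_EPZ_LPS and 4.80 ± 0.711 CPM in BV2_EPZ (2.96 ± 0.25, adjusted p = 9.75e-06). Zfp36, which marks AU-rich mRNAs for decay, rose in both as well (log2 fold change 1.98 ± 0.15 in primary microglia and 1.66 ± 0.26 in BV2 cells). Its relative Zfp36l2 fell in primary microglia (-2.41 ± 0.21, adjusted p = 1.38e-08) and had -0.56 ± 0.22 in BV2 cells (adjusted p = 0.244), a difference of -1.80 ± 0.32 (adjusted p = 0.000154).

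Of 6 protease genes, 5 were tested in primary microglia. Adam17, a sheddase that can release Cxcl16, rose in primary microglia (log2 fold change 0.83 ± 0.19, adjusted p = 0.00538) and in BV2 cells (0.76 ± 0.16, adjusted p = 0.0137). Adam10, also a Cxcl16 sheddase, fell in primary microglia (-0.58 ± 0.11, adjusted p = 0.000337) and was not called in BV2 cells (-0.38 ± 0.18, adjusted p = 0.38). The difference of responses was not called for either (adjusted p = 0.933 and 0.787).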
